A study of Mus musculus with 8 samples.

Results

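The genes of the heat shock proteins and of their J-domain partners, the DnaJ co-chaperones, were followed in mouse aortic endothelium after deletion of Mef2c. Members were taken by name alone: every probe set whose single gene symbol begins with Hspa, Hspb, Hspd, Hspe, Hsph, Hsp90, Dnaja, Dnajb or Dnajc, pseudogenes left out. This gave 73 probe sets for 70 genes, out of 30063 genes with a probe set of 1 symbol. Of the 70 genes, 56 had a mean log2 expression above the median of all probe sets, 6.14, and were tested among 16231 genes. The other 14 had mean log2 levels between 4.0 and 6.0 and were not tested. Dnaja1, Dnajc19 and Hspa1b were named only by probe sets with several symbols, so they have no values here, and Hsp90ab1 was not analysed here.

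HSP70 proteins (Hspa) bind unfolded stretches of protein and let go of them in a cycle driven by ATP. J proteins (Dnaj) stimulate the ATP step and bring clients, HSP110 proteins (Hsph1, Hspa4, Hspa4l) exchange the nucleotide, HSP90 proteins mature signalling proteins, and small heat shock proteins (Hspb) hold unfolding proteins without ATP. When misfolded protein builds up in the cytosol, heat shock factor 1 binds heat shock elements and switches on the inducible members. The endoplasmic reticulum and the mitochondria have their own HSP70, J proteins and, in the reticulum, HSP90. Stress in the reticulum is answered by a separate pathway. In endothelium HSP90 binds and activates endothelial nitric oxide synthase, and the chaperones of the reticulum fold the proteins that the cells secrete.

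The study asked which endothelial transcripts change when the transcription factor Mef2c is removed from the endothelium of adult mice. All 8 mice were female, carried floxed Mef2c on both alleles and the Cdh5-CreERT2 transgene, a recombinase active in endothelial cells once tamoxifen is given, and were treated at 10 weeks of age. The 4 EKO mice received tamoxifen on 5 days, and the 4 control littermates received the vehicle alone, sunflower seed oil with 10% ethanol. Thoracic aortas were taken on day 14 counted from the first injection, and each array held RNA that TRIzol had washed from the lumen of a single aorta. Tamoxifen and the deletion came together in the EKO group, so their effects cannot be told apart.

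The arrays were close to each other, with medians over the tested genes of 8.43 to 8.53 and pairwise correlations across genes of 0.981 to 0.993. Mef2c differed by -0.03 (SE 0.11, limma adjusted p = 0.946) and by 0.03 after quantile normalization, which is no check of the deletion because the labels do not give the floxed exons. Of 12 endothelial markers 11 were tested, and their mean log2 level lay between 13.05 and 13.31 on every array. Kdr and Robo4 were the endothelial markers below the medians of the array's negative control probe sets, 7.34 to 7.45 on the 8 arrays. Markers of other cells varied far more. The mean of 9 adipocyte markers ran from 8.77 to 11.35 on control and from 8.20 to 10.71 on EKO arrays, and that of 6 striated muscle markers from 6.38 to 7.74 and from 6.66 to 7.50.

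Promoters of some members carry the elements of these stress pathways, and those of 3 inducible genes, of the runs of 3 units and of the reticulum genes are printed so that the elements can be read beside the values. RefSeq promoters on GRCm38.p6 were found for 57 of the 70 genes, and the 250 bases before each start were searched on both strands. The heat shock element is built of GAA units in alternating orientation. A pair of units was searched as GAANNTTC or TTCNNGAA, each of which reads the same on both strands, and 3 units as GAANNTTCNNGAA, which reads TTCNNGAANNTTC on the other strand. Every match of 3 units also holds matches of 2. A pair of units occurred in the promoters of 12 of the 57 genes (21.1%) and in 12.8% of all 32851 promoter entries. They were Dnaja4, Dnajb4, Dnajb6, Dnajc10, Dnajc27, Hspa1a, Hspb1, Hspb3, Hspb6, Hspd1, Hspe1 and Hsph1. Runs of 3 units occurred in Dnajb6, Hspd1 and Hspe1, and in 0.466% of all entries. A gene can have several entries, so the shares of genes and of entries are set side by side without a test. A match is a run of letters, not a site of binding.

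The stress-inducible members with an element in the 130 bases before their farthest upstream start are Hspa1a, the classical inducible HSP70 (chr17:34972157-34972286, minus strand), Hspb1, the small heat shock protein HSP27 (chr5:135887789-135887918, plus strand), and Hsph1, an HSP110 (chr5:149636337-149636466, minus strand). Dnajb4, also inducible, has a pair at -14 to -7 from the farther downstream of its 2 listed starts, within the gene, and none in the 130 bases before the upstream start. That pair and those before the downstream starts of Dnaja4, listed here as constitutive, and of Hspb6 are not printed. Hspe1, the mitochondrial co-chaperonin (chr1:55088018-55088147, plus strand), and Dnajb6, a J protein that holds aggregating proteins (chr5:29735768-29735897, plus strand), carry 3 or more units in a row, and the Hspe1 element lies between Hspe1 and its divergent neighbour Hspd1. Capitals mark the matched units, and each line runs 5′ to 3′ along the gene's own strand and ends at the base before the start.
Hspa1a: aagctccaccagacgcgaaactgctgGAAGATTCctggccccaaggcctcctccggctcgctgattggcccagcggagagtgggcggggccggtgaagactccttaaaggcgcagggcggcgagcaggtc
Hspb1: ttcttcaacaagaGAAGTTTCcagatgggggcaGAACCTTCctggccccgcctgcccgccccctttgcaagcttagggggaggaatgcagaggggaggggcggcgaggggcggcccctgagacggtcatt
Hsph1: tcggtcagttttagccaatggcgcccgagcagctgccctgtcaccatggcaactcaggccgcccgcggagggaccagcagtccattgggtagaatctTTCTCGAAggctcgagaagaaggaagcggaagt
Hspe1: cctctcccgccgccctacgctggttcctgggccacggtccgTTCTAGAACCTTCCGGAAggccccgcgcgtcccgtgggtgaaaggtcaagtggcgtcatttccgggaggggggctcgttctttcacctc
Dnajb6: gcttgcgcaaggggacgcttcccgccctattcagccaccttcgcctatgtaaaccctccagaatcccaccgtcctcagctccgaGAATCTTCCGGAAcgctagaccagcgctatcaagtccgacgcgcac
The endoplasmic reticulum stress element was searched as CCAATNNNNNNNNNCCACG on both strands. It occurred in 37 of the 32851 entries (0.113%), and among the members in Hspa5, Hsp90b1 and Dnajc3. Hspa5 encodes BiP, the HSP70 of the reticulum (chr2:34771960-34772089, plus strand), Hsp90b1 its HSP90, GRP94 (chr10:86705445-86705574, minus strand), and Dnajc3 the J protein p58IPK (chr14:118937802-118937931, plus strand). Capitals mark the element.
Hspa5: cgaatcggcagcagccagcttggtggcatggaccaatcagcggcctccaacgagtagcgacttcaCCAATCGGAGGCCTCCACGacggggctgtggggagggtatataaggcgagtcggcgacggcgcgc
Hsp90b1: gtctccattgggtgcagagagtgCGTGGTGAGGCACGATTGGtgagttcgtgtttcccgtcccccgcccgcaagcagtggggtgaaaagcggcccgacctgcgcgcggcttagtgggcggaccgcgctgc
Dnajc3: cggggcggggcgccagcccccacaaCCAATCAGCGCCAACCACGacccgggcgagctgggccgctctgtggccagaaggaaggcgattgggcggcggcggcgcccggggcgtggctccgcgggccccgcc

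No heat shock protein or DnaJ gene passed the test between EKO and control aortas. With limma, 0 of the 56 tested members had an adjusted p under 0.05, as did 0 of all 16231 genes (0%), and the smallest adjusted p was 0.548 among the members. At an unadjusted p under 0.05 there were 2 members, Dnajc12 and Hspb1, against 8.93% of all genes. Differences were small: 53 of the 56 members differed by less than 0.3 on the log2 scale, and their standard errors ran from 0.06 to 0.55 with a median of 0.10. The exceptions were the mitochondrial genes Dnajc15, Dnaja3 and Hspa9. Below the control mean lay 44 members (78.6%), against 55.1% of all genes and 66.5% of the 11216 protein-coding genes, and all 56 tested members are protein-coding. Their median difference was -0.05, against -0.02 over all genes and -0.05 over protein-coding genes. The count of lower members was 51 when arrays were centred on their medians, where 70.4% of all genes were lower. After quantile normalization it was 38, where 53.4% of all genes were lower.

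**Figure D1:**
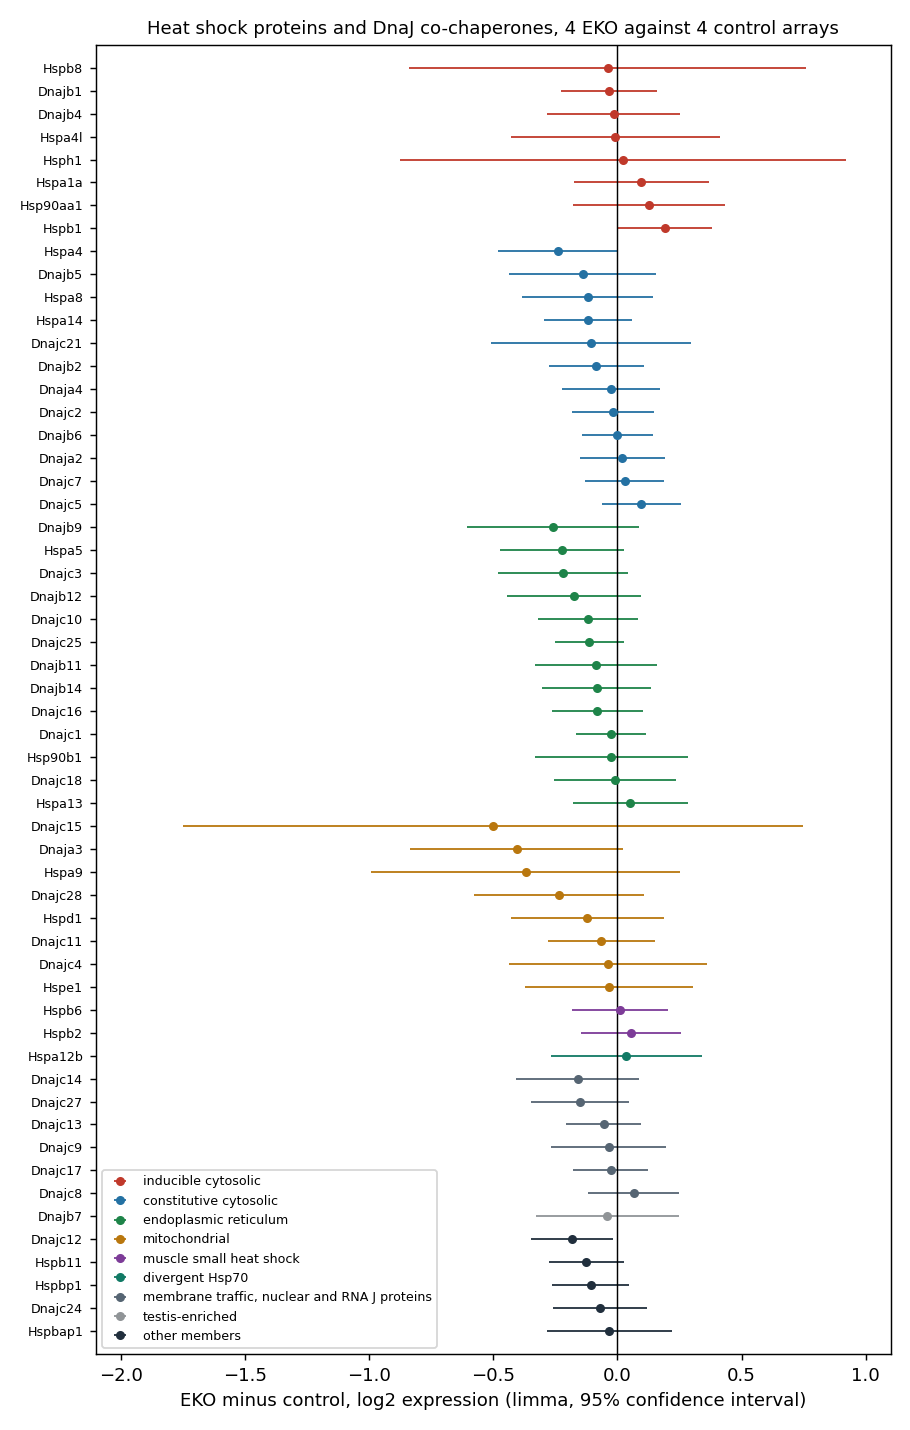
Difference in log2 expression between EKO and control aortas for the 56 tested members, grouped by role. Points are limma estimates, EKO minus control, and lines are 95% confidence intervals, with 4 arrays a group. 44 points lie below 0, the interval of Dnajc12 ends below 0 and that of Hspb1 starts at 0.00, and the widest interval is that of Dnajc15.

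The members that cytosolic stress induces lay evenly on both sides of the control mean, and that split depended on single arrays. Of 10 listed inducible genes 8 were tested, 4 lay above and 4 below the control mean, and their median difference was 0.01. With centred arrays 5 lay below, and after quantile normalization 2. Without control 4, EKO 2 or EKO 4, 7 of the 8 lay above, with medians of 0.09, 0.11 and 0.14. Leaving out EKO 1 left 3 above, with a median of -0.05. With the mean of the adipocyte markers as a covariate 7 lay above, with a median of 0.12. Hspa1a read 7.64, 7.54, 7.48 and 7.42 on control arrays 1 to 4 and 7.89, 7.55, 7.70 and 7.33 on EKO arrays 1 to 4. Its EKO values spread on both sides of the control values, with EKO 1 and 3 above them and EKO 4 below. The mean of Hspa1a over all arrays, 7.57, lay close to the negative control medians of 7.34 to 7.45, and EKO 4 read just below them. The difference of 0.10 (SE 0.12, limma adjusted p = 0.802) was smaller than its standard error. Hsp90aa1, the inducible cytosolic HSP90, read 12.68, 12.59, 12.89 and 12.93 in control and 13.22, 12.64, 12.93 and 12.81 in EKO aortas, a difference of 0.13 (SE 0.13, limma adjusted p = 0.768). EKO 1 stood clear of the control values, and EKO 3 was level with control 4.

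Hspb1, which caps actin filaments as well as holding unfolded proteins, came nearest to the threshold among the inducible genes. Its control values were 8.41, 8.41, 8.47 and 8.59 and its EKO values 8.74, 8.53, 8.58 and 8.80. EKO 1 and 4 stood above all control arrays, while EKO 2 and 3 lay just below control 4, so the groups overlapped. The difference was 0.19 (SE 0.08, 95% interval 0.00 to 0.38, limma unadjusted p = 0.0499, adjusted p = 0.558).

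Hsph1 was the inducible gene with the widest spread. It read 9.0, 9.05, 9.70 and 9.65 in control and 10.53, 8.82, 9.48 and 8.66 in EKO aortas. The EKO group held both the highest value, on EKO 1, and the lowest, on EKO 4, and its means were 9.35 ± 0.38 and 9.37 ± 0.85 (SD, n = 4 each). The difference of 0.02 (SE 0.39, limma adjusted p = 0.990) became -0.37 without EKO 1, 0.26 without EKO 4 and -0.04 with centred arrays. Hspa4l, the inducible HSP110 relative, had the same order at the ends, with 8.15, 7.97, 8.20 and 8.21 in control and 8.68, 8.12, 7.98 and 7.71 in EKO aortas. Its difference of -0.01 (SE 0.18) became -0.19 without EKO 1 and 0.13 without EKO 4.

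Dnajb1, the J partner of inducible HSP70, read 7.67, 7.58, 7.68 and 7.81 in control and 7.78, 7.48, 7.70 and 7.64 in EKO aortas, and Dnajb4, its close relative, 8.71, 8.76, 8.49 and 8.42 against 8.63, 8.37, 8.81 and 8.51. Both differed by less than 1 standard error (-0.03 and -0.01), and the sign of Dnajb4 turned after quantile normalization. Hspb8, which works with Bag3 in the autophagy of damaged muscle proteins, read 7.63, 7.27, 7.61 and 8.76 in control and 8.37, 7.35, 8.04 and 7.35 in EKO aortas. The values on control 2, EKO 2 and EKO 4 were under the highest negative control median, 7.45. Hspb8 was highest on control 4 and EKO 1. Those were also the arrays highest in striated muscle markers, with means of 7.74 and 7.50 against 6.38 to 6.79 on the others. The marker means on those other arrays lay under the negative control medians. The difference of Hspb8 was -0.04 (SE 0.35, limma adjusted p = 0.976) and 0.27 without control 4. The part of muscle RNA in it was not tested.

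**Figure D2:**
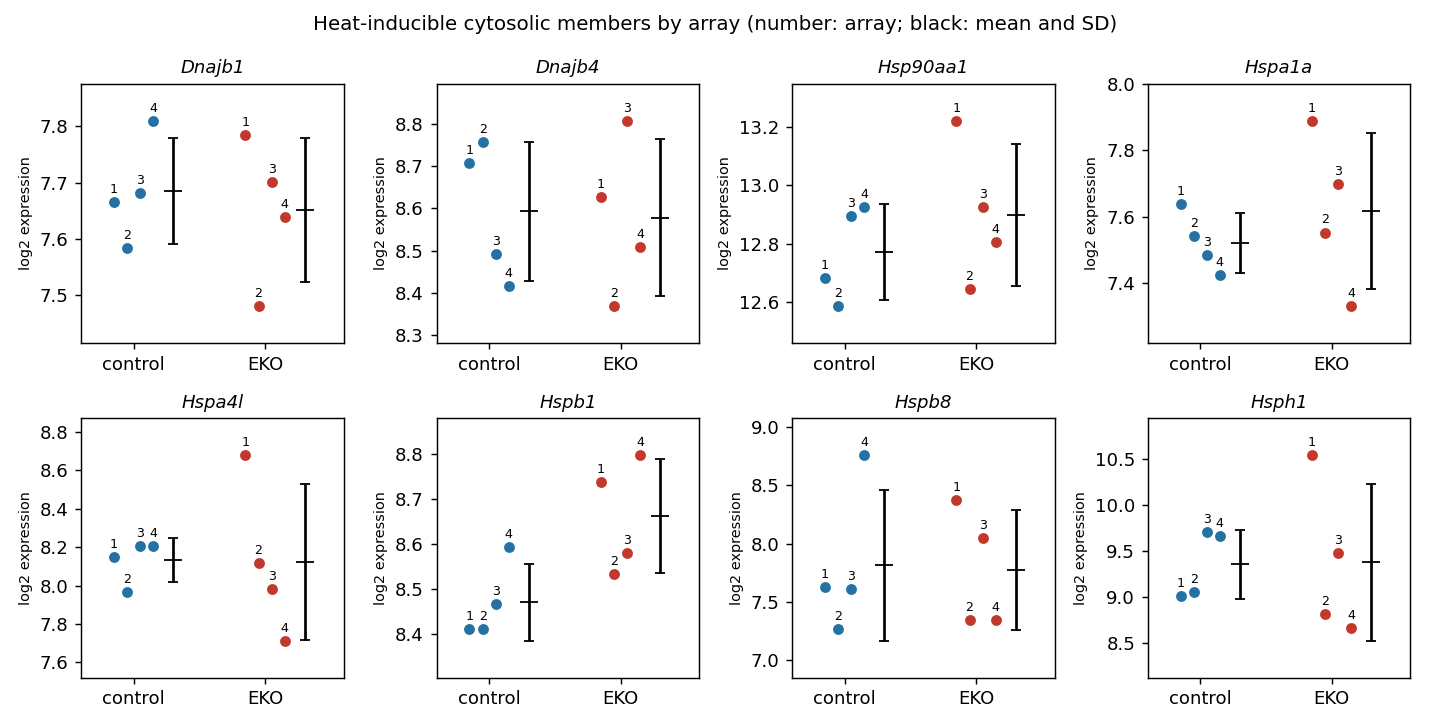
Log2 expression of the 8 tested inducible cytosolic members on each array, with blue points for control and red points for EKO aortas. Each number names the array, and the black line shows the mean and SD of 4 arrays. EKO 1 is the highest array for Hspa1a, Hsp90aa1, Hspa4l and Hsph1, and no panel separates the groups.

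Of the constitutive cytosolic members 3 of 12 tested lay above and 9 below the control mean, with a median of -0.05. Hspa4, the HSP110 that exchanges nucleotide for constitutive HSP70, had the smallest p among them. It read 11.31, 11.21, 11.34 and 11.48 in control and 11.36, 10.94, 11.09 and 10.99 in EKO aortas. EKO 2, 3 and 4 lay below all control arrays and EKO 1 among them. The difference was -0.24 (SE 0.11, limma adjusted p = 0.558).

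Hspa8, the constitutive HSP70 HSC70, read 18.88, 19.03, 18.85 and 19.00 in control and 19.04, 18.61, 19.00 and 18.64 in EKO aortas. EKO 2 and 4 lay below the control values and EKO 1 and 3 did not, with a difference of -0.12 (SE 0.12, limma adjusted p = 0.748). Hspa8 is uncertain on this array: the identifiers of all 4 of its probe sets name chromosomes 1, 6 or 14, whereas RefSeq puts the gene on chromosome 9. Over 30407 probe sets the chromosomes of identifier and RefSeq were the same in 99.6%. Without Hspa8 the median of the constitutive members was -0.02. Hspa14, an HSP70 found at the ribosome, differed by -0.12 (SE 0.08), and Dnajc5, the cysteine string protein of secretory vesicles, by 0.10 (SE 0.07), with limma adjusted p of 0.641 and 0.672. EKO 1, 3 and 4 read above all control arrays for Dnajc5 and EKO 2 did not. Dnajb6, with its 3 heat shock units, differed by -0.00 (SE 0.06).

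In the endoplasmic reticulum 12 of 13 members lay below the control mean, with a median of -0.09. Hspa5 read 10.99, 10.75, 10.77 and 10.88 in control and 10.87, 10.68, 10.44 and 10.51 in EKO aortas. EKO 2, 3 and 4 were below every control array, and EKO 1 was not. The difference was -0.22 (SE 0.11, limma adjusted p = 0.585). Dnajc3 likewise had EKO 2, 3 and 4 below every control array and EKO 1 among them, with 10.21, 10.16, 10.32 and 10.33 in control and 10.31, 9.81, 9.90 and 10.13 in EKO aortas, and differed by -0.22 (SE 0.11, limma adjusted p = 0.602). Hsp90b1, the third gene with the stress element, read 15.87, 15.74, 15.53 and 15.59 against 15.98, 15.75, 15.43 and 15.48. EKO 1 lay above all control arrays, EKO 3 and 4 below them and EKO 2 among them, and Hsp90b1 differed by -0.02 (SE 0.13).

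Dnajb9, a J protein that recruits BiP to the stress sensor IRE1, was 12.96, 12.27, 12.84 and 12.58 in control and 12.39, 12.23, 12.41 and 12.58 in EKO aortas. Control 1 and 3 were high, and the other arrays of both groups intermingled. The difference was -0.26 (SE 0.15, limma adjusted p = 0.624). Dnajc25, a membrane J protein, differed by -0.11 (SE 0.06, limma adjusted p = 0.609), and its mean lay under the negative control medians. The reticulum list as a whole averaged 9.93 to 10.00 on control arrays and 10.03, 9.76, 9.80 and 9.85 on EKO arrays 1 to 4. EKO 1 was above all control arrays and the other EKO arrays below them. Without EKO 1 all 13 members lay below the control mean, with a median of -0.13, and 10 to 12 did with any other single array left out.

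The 3 largest differences among the members were those of mitochondrial genes, none past the threshold. All 8 tested lay below the control mean, with a median of -0.18. Hspa9, mortalin, the HSP70 of the matrix that pulls in imported proteins, read 11.54, 11.15, 12.15 and 12.05 in control and 11.94, 10.90, 11.20 and 11.38 in EKO aortas. Control 3 and 4 and EKO 1 were high and the others low, whatever their group. The difference was -0.37 (SE 0.27, limma adjusted p = 0.677). Dnaja3, the J partner of Hspa9, read 9.08, 8.80, 9.61 and 9.45 against 9.11, 8.62, 8.68 and 8.90. Control 3 and 4 stood above all other arrays, and the difference was -0.41 (SE 0.19, limma adjusted p = 0.567).

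Dnajc15, an inner membrane J protein of the import motor, had the widest range within a group of all members, 2.15 on the log2 scale. It read 10.90, 11.35, 13.05 and 12.85 in control and 12.18, 10.76, 11.06 and 12.16 in EKO aortas. The difference of -0.50 (SE 0.55, limma adjusted p = 0.777) was smaller than its standard error. Dnajc28, a little-studied J protein, differed by -0.23 (SE 0.15, limma adjusted p = 0.636), and its mean lay under the negative control medians. The chaperonin pair Hspd1 and Hspe1, which share the promoter shown, differed by -0.12 (SE 0.13) and -0.03 (SE 0.15).

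The adipocyte markers followed the same arrays. Their mean was 9.48, 8.77, 11.35 and 10.97 on control arrays 1 to 4 and 10.71, 8.20, 9.18 and 10.08 on EKO arrays 1 to 4, while that of the mitochondrial members was 9.27, 9.30, 9.97 and 9.87 and 9.66, 9.11, 9.24 and 9.52. Control 3 was the highest array for 6 of the 8 mitochondrial members, for 7 of the 9 adipocyte markers and for 13.2% of all genes. All 9 adipocyte markers lay below the control mean too, with a median of -0.57. With their mean as a covariate, the median of the mitochondrial members was -0.04 and 6 of 8 were lower. Without control 3 it was -0.10 and without control 4 -0.12. With the same covariate the medians of the inducible, constitutive and reticulum members were 0.12, -0.02 and -0.06. The part of adipocyte RNA in the members' values was not tested. In bulk RNA, fewer cells of a type and less RNA per cell cannot be told apart.

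**Figure D3:**
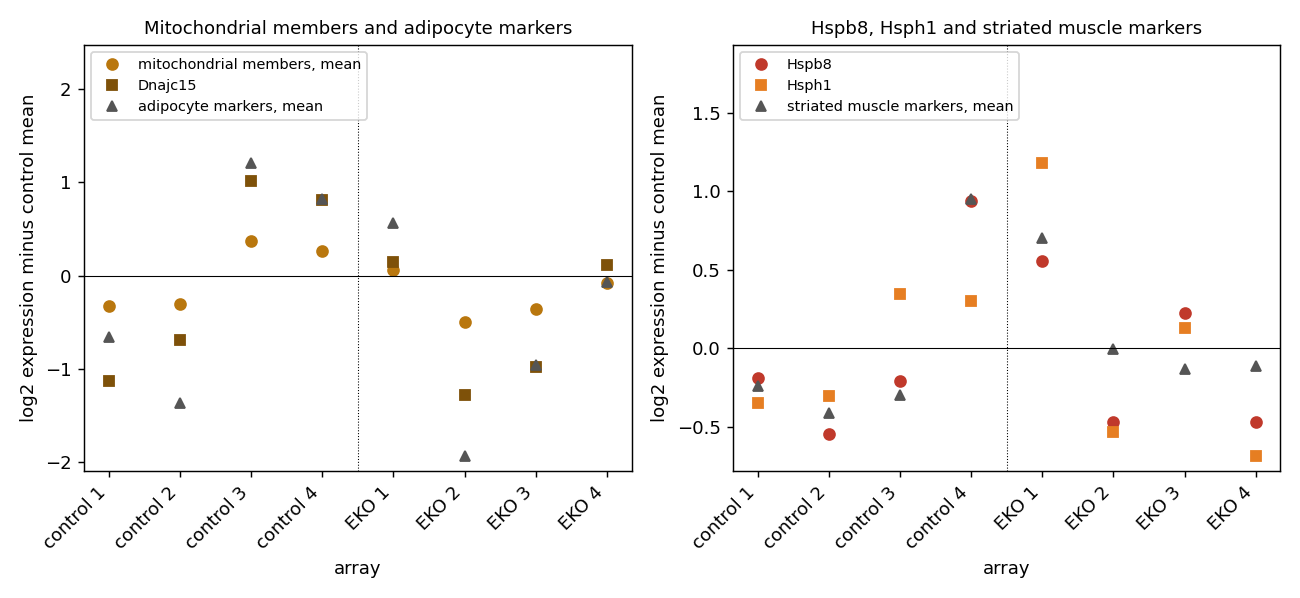
Left, the mean of the 8 mitochondrial members, Dnajc15 and the mean of 9 adipocyte markers on each array, as log2 expression minus the control mean; right, Hspb8, Hsph1 and the mean of 6 striated muscle markers on the same scale. Control 3, control 4 and EKO 1 lie above 0 for all measures on the left, and control 4 and EKO 1 for all on the right. The dotted line parts the groups.

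The remaining roles held few tested members. Of the muscle small heat shock proteins, Hspb2 differed by 0.06 (SE 0.09) and Hspb6, which takes part in smooth muscle relaxation, by 0.01 (SE 0.08), both at levels under the negative control medians and both below 0 under either other scaling. Hspb3 and Hspb7 were not tested. Hspa12b, a divergent HSP70 of endothelial cells needed for angiogenesis, read 11.94, 11.51, 11.86 and 11.42 in control and 11.87, 11.75, 11.53 and 11.73 in EKO aortas. The groups overlapped fully, with a difference of 0.04 (SE 0.13, 95% interval -0.27 to 0.34, limma adjusted p = 0.942) and of -0.03 with centred arrays. Of the 9 testis-enriched members Dnajb7 was the one tested, at -0.04 (SE 0.13), with a mean under the negative control medians.

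Among the J proteins of membrane traffic, the nucleus and RNA, 1 of 6 tested lay above and 5 below the control mean, with a median of -0.05. Dnajc14, which regulates the export of receptors from the reticulum, differed by -0.16 (SE 0.11), Dnajc27, a Rab-like protein, by -0.15 (SE 0.09), and Dnajc13, which works on endosomes, by -0.06 (SE 0.07). Their limma adjusted p were 0.652, 0.620 and 0.797.

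The groups parted for 2 members, Dnajc12 and Hspb11, both lower in EKO aortas. The share of all genes whose groups did not overlap was 2.67% on the lower side and 3.41% on the higher side, where 0 members stood. Among protein-coding genes alone the lower side held 3.44%. Which members parted depended on the scaling: after quantile normalization they were Dnajc12, lower, and Dnajc5 and Hspb1, higher, and with centred arrays Dnajc12 and Dnajc25, both lower. Under these scalings the lower side held 2.11% and 4.33% of all genes. Dnajc12, a J protein that works with the aromatic amino acid hydroxylases, read 7.86, 7.82, 7.79 and 7.78 in control and 7.66, 7.71, 7.67 and 7.47 in EKO aortas. The control values were tight, at 7.81 ± 0.03, and the EKO values reached further down, at 7.63 ± 0.11 (SD, n = 4 each). The difference was -0.18 (SE 0.07, 95% interval -0.35 to -0.02, limma unadjusted p = 0.0339, adjusted p = 0.548).

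Hspb11 fits the family by its name, but its product IFT25 is a part of the intraflagellar transport complex of cilia. It read 8.77, 8.88, 8.79 and 8.89 in control and 8.76, 8.61, 8.72 and 8.73 in EKO aortas. EKO 1 lay just below control 1, the closest pair across the groups, and the difference was -0.13 (SE 0.07, limma adjusted p = 0.603). Hspbp1, likewise no heat shock protein but an exchange factor of HSP70, differed by -0.11 (SE 0.07, limma adjusted p = 0.636). Its control values of 8.72, 8.87, 8.76 and 8.86 overlapped the EKO values of 8.77, 8.67, 8.62 and 8.72 through EKO 1.

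Single arrays stood apart across the members of both groups. EKO 1 was the highest of the 8 arrays for 16 of the 56 members (28.6%) and the lowest for 0, against 9.35% and 10.4% of all genes. EKO 2 was the lowest for 24 members (42.9%), against 22.6% of all genes and 28.2% of protein-coding genes. EKO 1 was the highest for 4 of 8 inducible, 4 of 12 constitutive and 5 of 13 reticulum members. The mean of the inducible members was 8.74, 8.65, 8.82 and 8.97 in control and 9.23, 8.61, 8.90 and 8.60 in EKO aortas. EKO 1 had the highest mean and EKO 4 and 2 the lowest.

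EKO 1 also had the highest mean of smooth muscle markers, 8.12 against 7.35 to 7.76 elsewhere, and EKO 2 that of neutrophil markers, 8.91 against 6.06 to 7.67. Apart from EKO 2 and control 4, the arrays had neutrophil means under the negative control medians. For 3 of the 8 smooth muscle markers EKO 1 was the highest array, and the others of that list had means under the negative control medians. The part of these cells in the members' values was not tested. Without EKO 1 the groups parted for 11 members, all lower in EKO aortas, against 6.2% of all genes. They were Dnajb11, Dnajb12, Dnajc11, Dnajc12, Dnajc13, Dnajc25, Dnajc3, Hspa4, Hspa5, Hspb11 and Hspbp1, and 5 of them belong to the reticulum list. With limma 0 members passed there too, the smallest adjusted p being 0.246. An unadjusted p under 0.05 was found for 6, against 12.3% of all genes. Since EKO 1 was the highest array for many members, leaving it out by itself favours parting on the lower side. With any other single array left out 2 to 4 members parted. The share of protein-coding genes parted without EKO 1 was not computed.

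**Figure D4:**
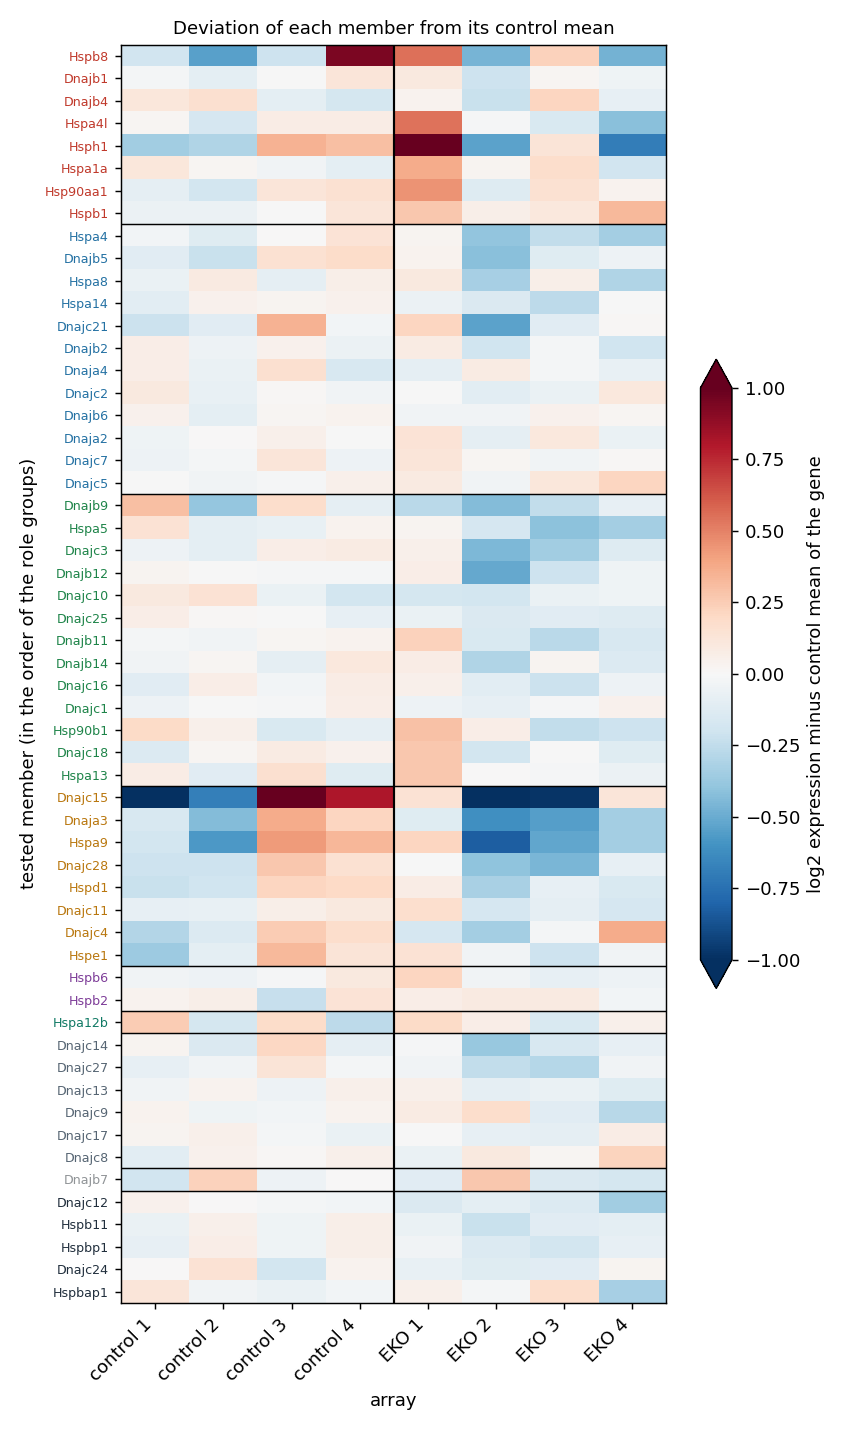
Log2 expression of each tested member on each array minus its control mean, in red where higher and blue where lower. The colour scale stops at 1 and -1, names are coloured by role and lines part the roles and the groups. The columns of EKO 1 and EKO 2 differ from each other across the cytosolic and reticulum members, and control 3 and 4 stand out in the mitochondrial rows.

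Among genes that act with the chaperones but do not carry their names, 0 passed the test with limma, and 1, Serpinh1, had an unadjusted p under 0.05. The heat shock factors could be followed only in part: Hsf2 differed by -0.01 (SE 0.13) and Hsbp1, a factor-binding protein, by -0.13 (SE 0.11), while Hsf1 was not analysed here. All 12 tested partners of HSP70 and HSP110 lay below the control mean, with a median of -0.15, where 66.5% of protein-coding genes lay below. Among them were the exchange factors Grpel2 (-0.17, SE 0.08) and Sil1 (-0.19, SE 0.12) and the import protein Tomm34 (-0.15, SE 0.09). Their limma adjusted p were 0.578, 0.636 and 0.626. The largest difference of that list was Grpel1, at -0.34 (SE 0.30). It read 10.48, 10.08, 11.16 and 11.17 in control and 10.85, 9.79, 10.23 and 10.68 in EKO aortas. The adipocyte markers were also highest on control 3 and 4, and their part in Grpel1 was not tested. HSP90 partners were split, 6 above and 7 below, with Sugt1 at 0.16 (SE 0.08), Cdc37, which brings kinases to HSP90, at -0.15 (SE 0.08) and the myosin chaperone Unc45b at 0.18 (SE 0.10).

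Of 12 tested genes of the chaperonin TRiC and other folding proteins 4 lay above and 8 below, with a median of -0.01. Serpinh1, the collagen chaperone HSP47, differed by -0.35 (SE 0.12, limma unadjusted p = 0.016, adjusted p = 0.524). It read 7.86, 8.22, 8.17 and 7.96 in control and 7.91, 7.51, 7.78 and 7.61 in EKO aortas, so EKO 2, 3 and 4 lay below all control arrays. Fibroblast markers, the genes of collagen-making cells, had means of 8.25, 8.36, 8.92 and 8.98 in control and 8.57, 8.0, 8.16 and 8.29 in EKO aortas, with 6 of 7 below the control mean; their part in the value of Serpinh1 was not tested. Cryab, the small heat shock protein alpha B crystallin, differed by -0.41 (SE 0.23, limma adjusted p = 0.618). It read 9.40, 9.02, 9.09 and 9.85 in control and 9.46, 8.53, 8.89 and 8.83 in EKO aortas. Like Hspb8 it was highest on control 4 and EKO 1, the arrays highest in striated muscle markers, and the part of muscle RNA in it was not tested. The prefoldin subunit Pfdn2 differed by 0.16 (SE 0.10).

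Of the unfolded protein response genes, 12 of 13 tested lay below the control mean, with a median of -0.11, where 66.5% of protein-coding genes lay below. Atf4, the factor of its PERK branch, differed by -0.21 (SE 0.12), Syvn1, a ligase of protein disposal, by -0.13 (SE 0.09), and Sdf2l1, a BiP cofactor, by 0.17 (SE 0.10). Limma adjusted p were 0.618, 0.662 and 0.626. Immediate early genes, which dissection can induce, had 6 of 9 above the control mean and a median of 0.16. Their means were 9.30 to 9.75 on control and 9.71 to 9.98 on EKO arrays.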

How the data were processed

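RNA from 8 single thoracic aortas, 4 control and 4 EKO, was measured on Affymetrix mouse transcriptome arrays, from 5 ng of RNA per array. Per the labels, the authors made the deposited log2 values with SST-RMA in Expression Console; array batches and the genome build are not given in the sources used here. SST-RMA normalizes between arrays, so shifts in total signal were removed before deposit.

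The platform annotation gave 1 symbol to 30604 of 72688 probe sets, several to 2146 and none to 33206, leaving 6732 control probe sets. Symbols were updated through RefSeq, which matched 30602 of the 30604 and changed 1135. Where a gene had several probe sets, as 429 did, that with the highest mean was used. Genes whose mean exceeded that median over all probe sets were fitted with limma 3.58.1 in R 4.3.3 (lmFit, eBayes, no covariates), with Benjamini-Hochberg adjustment over 16231 genes and a threshold of 0.05. Differences are EKO minus control on the log2 scale. Precision is limited by the number of arrays, and p-values measure the spread between these 8 mice.

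On simulated data with 200 changed genes the test called 88% of changes of 1 and 96% of changes of 2 on the log2 scale, with 6.6% false calls. The noise was drawn independently for each gene, unlike variation that genes share on an array, and changes under 1 were not simulated. These shares therefore do not cover differences as small as those of the members. The members and lists were chosen with earlier results of these data known.

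The genes named are the inducible list with Hspa8 and Hspa4, the 12 members with the smallest p, members whose groups did not overlap, up to 3 of each other list by p, the member with the widest range within a group, and Mef2c. Dnajb6, Hspd1, Hspe1 and Hsp90b1 (named for their promoters), the genes parted without EKO 1, and the markers Kdr and Robo4 were chosen after their values were seen. Same-numbered arrays were checked for pairing: their deviations correlated at -0.16, 0.21, -0.24 and 0.13, so the numbers were not used to pair the arrays. Such correlations cannot show whether arrays shared a litter or their handling. Alternatives covered the filter, probe sets, normalization, variance, weights, covariates, block, threshold and each array left out.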

Additional observations from a re-analysis of the deposited data

Results flagged for a closer look

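Of 132 groups of 4 arrays checked, over the named genes and the list means, 7 held an array far from its group, and chance flags about 1 in 20. Hspa14 read 8.84 on control 1, against 8.97 to 8.99 on the other control arrays. Hspb6 read 6.47 on EKO 1, against 6.18 to 6.22 on the other EKO arrays. Dnajb7 read 6.89 on EKO 2, against 6.45 to 6.51 on the other EKO arrays. Tomm34 read 8.24 on EKO 3, against 8.16 to 8.18. The mean of the smooth muscle markers was 7.35 on control 1, against 7.68 to 7.72 on the other control arrays. Striated muscle markers averaged 7.74 on control 4, against 6.38 to 6.55, and 7.50 on EKO 1, against 6.66 to 6.79.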

How the results depend on the processing

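The count of members called was 0 with limma under the 20 other settings of the fit and at a threshold of 0.1 on the adjusted p, as was that of all genes. The exception was an unadjusted threshold of 0.05, which gave 1449 genes and 2 members. Non-overlapping members numbered 3 after quantile normalization (1 lower, 2 higher), 1 with the filter at the 75th percentile and 2 to 11 with 1 array left out, 11 without EKO 1 and 4 without control 4. The lower-side share of all genes was 2.11% after quantile normalization, 3.17% with that filter and 3.27% to 6.2% with 1 array left out. This count has no value under the block, the covariates, the weights and the variance models.

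With the replicate number as a block 0 members passed, 1 had an unadjusted p under 0.05, and 1259 genes did; no call changed, and no array correlated best with its own number (0 of 4).

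Medians kept their sign for the constitutive (-0.08 to -0.00), reticulum (-0.13 to -0.06) and mitochondrial members (-0.25 to -0.10) with each array left out. That of the inducible members did not, at -0.05 to 0.14, and was -0.06 with centred arrays, where 5 of 8 were lower. Under centring and quantile normalization 11 and 7 of 12 constitutive, 13 and 11 of 13 reticulum and 8 and 6 of 8 mitochondrial members were lower. Over all genes 70.4% and 53.4% were lower under these scalings.

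Of 45 genes followed, 34 never changed sign. Signs turned under quantile normalization for Dnajb4 (0.019), Hspa4l (0.015), Hspb2 (-0.020), Hspb6 (-0.073), Mef2c (0.025) and Hsf2 (0.041), and under centring for Hsph1 (-0.043), Hspb2 (-0.0095), Hspb6 (-0.054) and Hspa12b (-0.029). Array weights turned Hsph1 (-0.072), Dnajb4 (0.041), Hspb6 (-0.0084) and Hsf2 (0.036). The adipocyte covariate turned Dnajb1 (0.012), Hspa4l (0.054) and Hspb8 (0.14). The immediate early covariate turned Dnajb4 (0.084), Hspb6 (-0.005), Dnajb7 (0.10), Hspa12b (-0.10) and Hsf2 (0.11). With 1 array left out, Dnajb4 ran from -0.091 to 0.055, Hspa4l from -0.19 to 0.13, Hspb2 from -0.021 to 0.10, Hspb6 from -0.057 to 0.044, Mef2c from -0.12 to 0.035 and Hsf2 from -0.10 to 0.11. Hsph1 ran from -0.37 to 0.26, Hspa12b from -0.051 to 0.12, Dnajb1 from -0.078 to 0.023, Hspb8 from -0.24 to 0.27 and Dnajb7 from -0.14 to 0.036. The cause was not tested. Signal limits 8 tested members, whose means lay between the filter and the negative control medians.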
